A study of Saccharomyces cerevisiae with 6 samples.

Results

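The genes described here are listed for uptake of ready-made purines by budding yeast and recycling into nucleotides, though the FCY1 enzyme acts on cytosine. They were chosen by name as 10 permeases, deaminases, phosphoribosyltransferases and a kinase, and all 10 were found among the 5449 genes tested, each with a single probe set on the Affymetrix array. Messenger RNA was measured in 6 samples. There were 3 of FY4, the wild-type reference strain, and 3 of a strain that carries a deletion of BAS1. Both strains grew exponentially in batch in glucose minimal medium at one temperature and shaking speed, and the labels name no added purine. The labels name FY4 as the strain of the wild-type samples and give no strain for the deletion samples. Nothing in them says that replicates came from different cultures, so the p-values speak of the spread among these samples, which may be technical.

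Cells obtain purine nucleotides by building them step by step to inosine monophosphate (IMP) or by salvage. In salvage a permease brings in a base, and a phosphoribosyltransferase joins it to ribose phosphate to give a nucleotide in a single step. Adenine deaminase and AMP deaminase turn adenine compounds into hypoxanthine compounds, which links the adenine and guanine branches. Adenosine kinase recovers adenosine released in methyl-group metabolism. Bas1 is a Myb-family transcription factor that acts with Pho2 and is known for activating purine synthesis genes when adenine is scarce.

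Levels are log2 of the deposited intensities, and differences are deletion minus wild type with limma's standard error (SE). A gene is said to have risen or fallen where the limma p, adjusted over all 5449 genes, was under 0.05. BAS1 (YKR099W) checked the labels. It read 11.18, 10.96 and 11.14 in the wild-type arrays and 4.86, 4.76 and 4.86 in the deletion arrays, where it was above background in none. Background is the level under which 95% of the probe sets lay whose gene is not one of S. cerevisiae in the RefSeq table, taken per array or over all arrays (6.09), whichever is higher.

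The arrays of both strains differed in more than gene levels. The median of all tested genes was 10.94 to 10.997 in wild type and 11.10 to 11.14 in the deletion strain, and over all tested genes the difference had a median of 0.11. It was -0.04 after each array was centred on its median, -0.07 after quantile normalization and -0.00035 after cyclic loess. All 16 probe sets for the large ribosomal RNAs were lower in the deletion arrays, with a median log2 difference of -3.09. Summed levels of 4 alpha-cell marker genes were 10.40 to 10.57 in wild type and 11.62 to 11.75 in the deletion arrays (log2 of the summed intensities), while those of 7 a-cell markers were 15.45 to 15.73 and 15.41 to 15.72. The mean log2 level of the alpha-cell markers was 7.52 to 7.65 in wild type and 9.33 to 9.41 in the deletion arrays. For the a-cell markers it was 12.11 to 12.53 and 12.20 to 12.57. In every array all 7 a-cell markers were above background, as were 3 of the 4 alpha-cell markers in the wild-type arrays and all 4 in the deletion arrays. Poly-A spike controls were low in wild-type arrays 1 and 2 and deletion array 1 and high in the other 3. The part of these differences in the results below was not tested.

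Of the 10 genes, 4 rose, 2 fell and 4 did not pass the threshold. FCY21 and FCY22, the relatives of the purine-cytosine permease gene FCY2, rose by 3.11 and 1.65 log2, and HPT1, the gene of the enzyme that recovers hypoxanthine and guanine, fell by 1.78 log2. XPT1 fell, and AMD1 and APT1 rose, by less than 0.5 log2 each. FCY2, FCY1, AAH1 and ADO1 were not called. The share of members called, 6 of 10, is near the background, since 59.5% of all tested genes were called, 39.6% as raised and 19.8% as lowered. On the deposited scale, changes of at least 2-fold were seen in 3 members, FCY21, FCY22 and HPT1, against 9.47% of all tested genes. Quantile normalization took FCY22, which was at background in wild type, to 1.80-fold. The strains did not overlap in 7 members, against 67.5% of all tested genes. The median difference of the 10 members was 0.17, and their median SD within strains (0.087) was close to that of all tested genes (0.085).

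**Figure D1:**
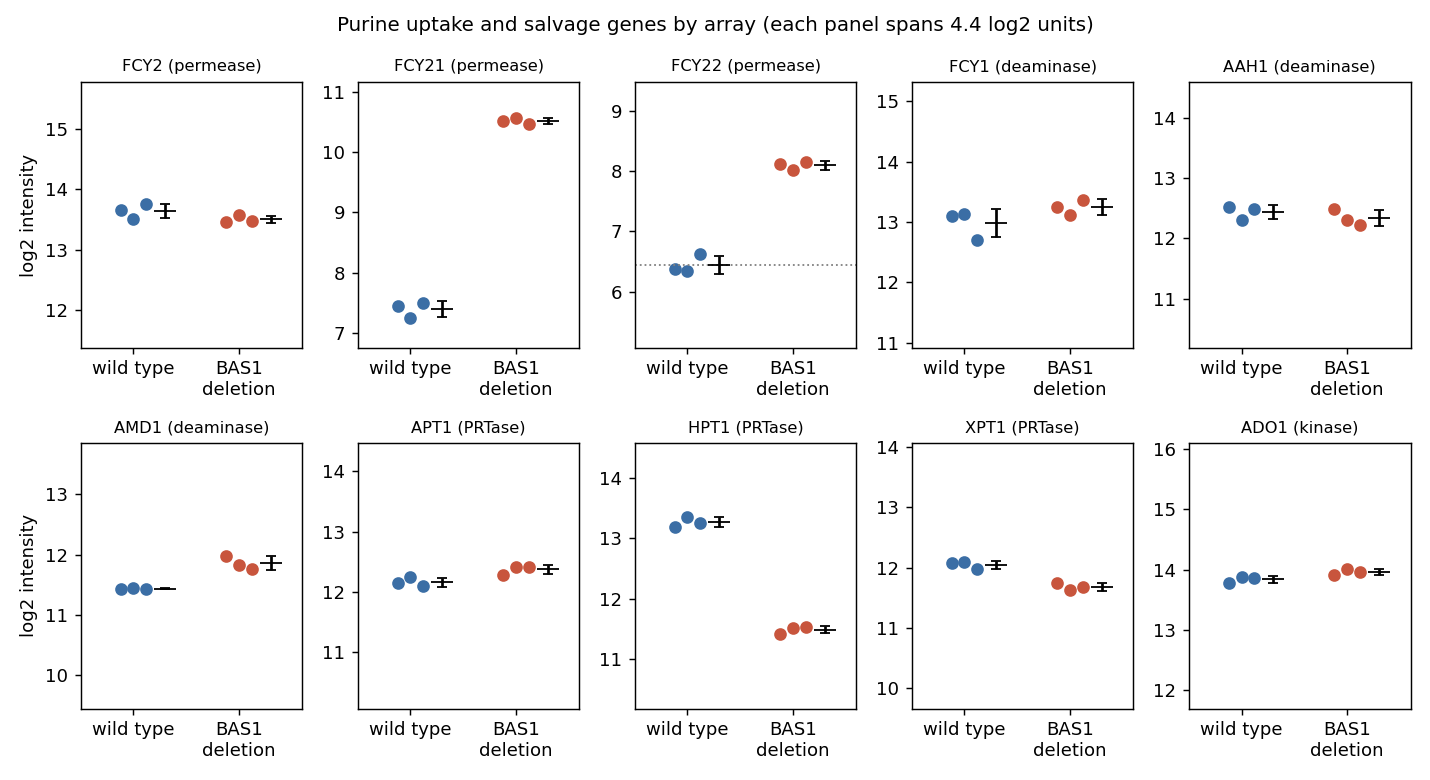
Log2 intensity (vertical axis) of the 10 genes in the 3 wild-type arrays (blue) and the 3 BAS1 deletion arrays (red); black bars are the mean and SD, n = 3, each panel spans the same log2 range, PRTase stands for phosphoribosyltransferase, and the dotted line is the mean background level of the wild-type arrays. FCY21, FCY22 and HPT1 separate widely, with gaps of 2.95, 1.40 and 1.66 log2 between the nearest arrays of the strains, and in the other 7 genes the strain means differ by at most 0.42 log2.

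The permeases come first on the path. FCY2 (YER056C) encodes the plasma membrane permease for adenine, guanine, hypoxanthine and cytosine. It read 13.65, 13.52 and 13.76 in wild type and 13.47, 13.58 and 13.48 in the deletion strain. The strains overlapped, since deletion array 2 lay above wild-type array 2. The difference was -0.14 (SE 0.07, 95% interval -0.31 to 0.04, limma adjusted p = 0.156, n = 3 per strain). After array centring it was -0.29 with an adjusted p of 0.0219, and without wild-type replicate 2 it was -0.20 with an adjusted p of 0.0474, so the call of FCY2 depends on the scaling and on 1 array.

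FCY21 (YER060W) encodes a close relative of Fcy2 that is known not to replace it. Its levels were 7.44, 7.26 and 7.50 in wild type and 10.51, 10.55 and 10.46 in the deletion strain. All arrays were above background, and the lowest deletion array exceeded the highest wild-type array by 2.95 log2. The rise was 3.11 (SE 0.07, adjusted p = 1.61e-06), or 8.63-fold with a 95% interval of 7.62 to 9.78. It ranked 41st among all tested genes ordered from the highest rise.

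FCY22 (YER060W-A) encodes another relative of Fcy2, and its gene lies next to FCY21 on chromosome V. It read 6.37, 6.34 and 6.62 in wild type, where 2 of 3 arrays were above background, and 8.12, 8.01 and 8.15 in the deletion strain, where all 3 were. The wild-type mean of 6.44 equalled the mean background level of 6.44 to the printed digit. On the deposited scale the rise was 1.65 (SE 0.09, adjusted p = 2.08e-05), or 3.14-fold. With wild-type array 1, the one under background, taken at background, the estimate was 2.98-fold on that scale, which is no lower limit. Quantile normalization over the tested genes reduced it to 0.85, or 1.80-fold (adjusted p = 0.0011). The same scaling left FCY21 at 2.54, or 5.83-fold.

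The permease genes were also compared within arrays. The difference between 2 genes within an array does not change when the whole array is shifted, and only its change between strains has a meaning, since probe sets bind with unequal strength. FCY21 minus FCY2 was -6.22, -6.26 and -6.26 in wild type and -2.96, -3.02 and -3.02 in the deletion strain, a change of 3.25. FCY22 minus FCY2 changed by 1.79, and by 1.03 after quantile normalization. FCY21 minus FCY22 was 1.07, 0.91 and 0.88 in wild type and 2.39, 2.54 and 2.31 in the deletion strain, a change of 1.46, or 1.70 after quantile normalization. FCY22 was at background in wild type, so the size of its own rise is uncertain. Neither of these changes with FCY22 is given as a fold. In each of these 3 pairs the strains did not overlap. The exact two-sided permutation test gave p = 0.1 for each, the smallest that 3 against 3 arrays allow, and 0.129 when adjusted over the 9 pairs compared. The products of FCY21 and FCY22 are very similar, so signal that each probe set may take from the other's transcript cannot be told apart from its own, although neither probe set name carries a mark of shared binding.

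HPT1 (YDR399W) encodes hypoxanthine-guanine phosphoribosyltransferase, which makes IMP from hypoxanthine and GMP from guanine. It read 13.19, 13.35 and 13.26 in wild type and 11.42, 11.52 and 11.53 in the deletion strain. Every deletion array lay at least 1.66 log2 below every wild-type array. The fall was 3.43-fold, a log2 difference of -1.78 (SE 0.06, 95% interval -1.93 to -1.63, adjusted p = 5.09e-06), and it ranked 11th among all tested genes ordered from the deepest fall, in which BAS1 itself is first. The difference was -1.93 after array centring, -1.89 after quantile normalization and -1.84 after cyclic loess. It was -1.85 in the low-spike arrays and -1.74 in the high-spike arrays.

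XPT1 (YJR133W) encodes the phosphoribosyltransferase for xanthine. It read 12.08, 12.09 and 11.97 in wild type and 11.74, 11.62 and 11.67 in the deletion strain, and the strains did not overlap. The fall was 1.29-fold (log2 difference -0.37, SE 0.06, adjusted p = 0.0020). In the low-spike arrays alone, with 2 wild-type arrays against 1 deletion array, it was -0.35 with an adjusted p of 0.0504.

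APT1 (YML022W) encodes adenine phosphoribosyltransferase, which makes AMP from adenine. Its levels were 12.14, 12.24 and 12.09 in wild type and 12.29, 12.42 and 12.41 in the deletion strain, with a gap of 0.046 log2 between the strains. The rise was 0.21 (SE 0.06, adjusted p = 0.0255), and 9 of 19 alternative settings ended the call. Array centring gave 0.058 (adjusted p = 0.38), quantile normalization 0.071 (adjusted p = 0.3) and the low-spike arrays 0.094 (adjusted p = 0.441). Leaving out wild-type replicate 1 or 3 or deletion replicate 2 or 3 gave 0.18 to 0.21, with adjusted p from 0.0702 to 0.0844.

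Within the arrays, the 3 phosphoribosyltransferase genes moved apart. HPT1 minus APT1 was 1.05, 1.11 and 1.16 in wild type and -0.87, -0.90 and -0.89 in the deletion strain, so the ratio of HPT1 to APT1 fell 3.98-fold. The ratio of HPT1 to XPT1 fell 2.66-fold, and XPT1 minus APT1 changed by -0.58. No pair overlapped between strains (exact permutation p = 0.1 each, 0.129 adjusted over the 9 pairs).

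**Figure D2:**
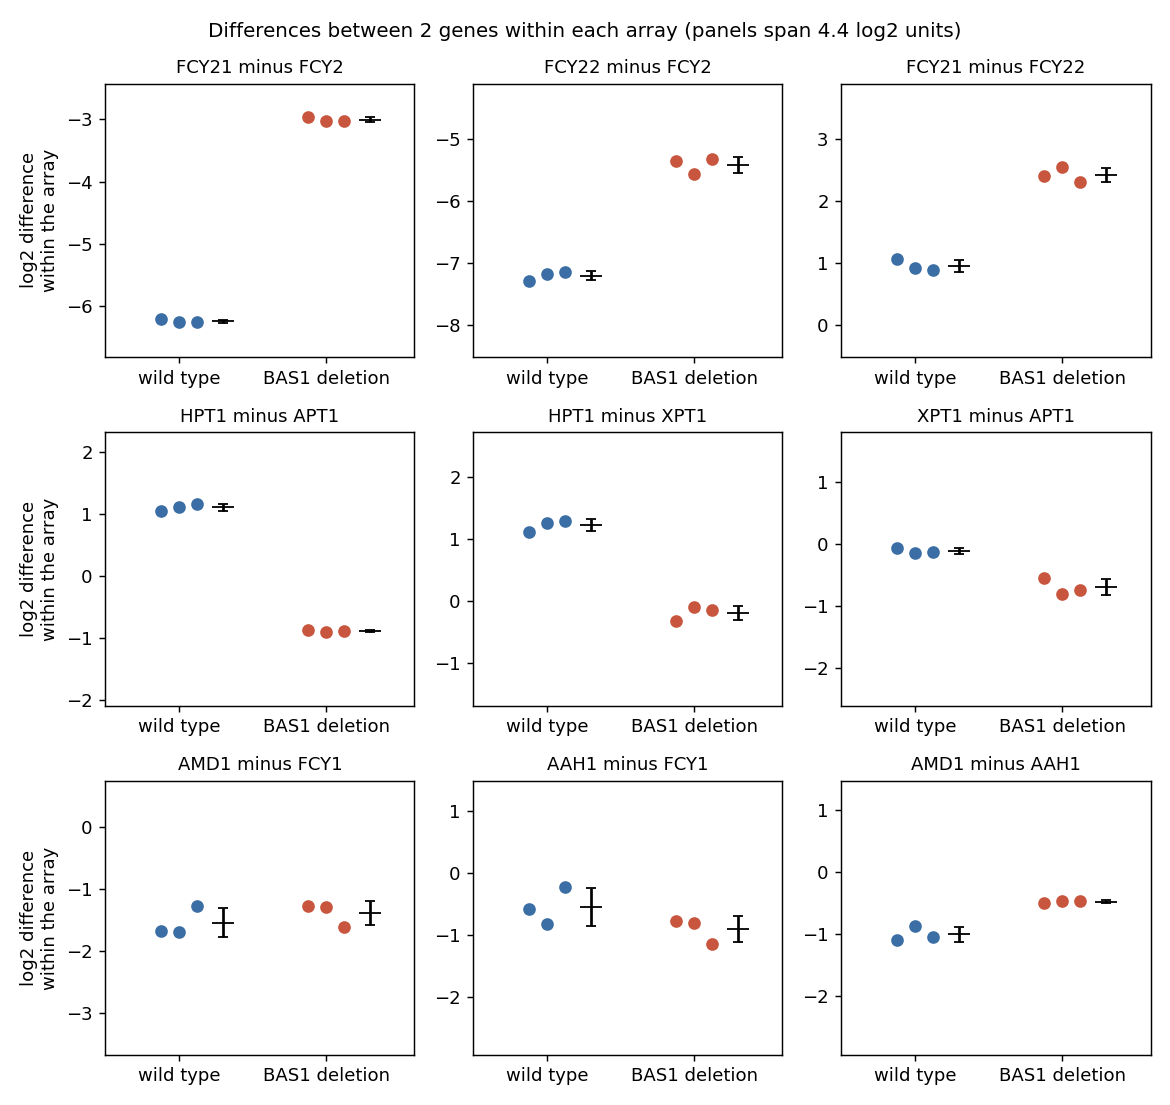
Log2 difference between 2 genes within each array (vertical axis) for the 9 pairs compared, in wild-type arrays (blue) and BAS1 deletion arrays (red), with the mean and SD (black, n = 3). The permease pairs and the phosphoribosyltransferase pairs do not overlap between strains, while AMD1 minus FCY1 and AAH1 minus FCY1 do.

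The deaminase genes differed little. AMD1 (YML035C) encodes AMP deaminase, which turns AMP into IMP. It read 11.43, 11.44 and 11.43 in wild type and 11.98, 11.83 and 11.77 in the deletion strain, without overlap. The rise was 1.34-fold (log2 difference 0.42, SE 0.06, adjusted p = 0.0018), and 0.27 after array centring (adjusted p = 0.018). The SD was 0.007 in wild type and 0.11 in the deletion strain.

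AAH1 (YNL141W) encodes adenine deaminase, which makes hypoxanthine from adenine and so feeds the reaction catalysed by Hpt1. It read 12.52, 12.30 and 12.49 in wild type and 12.49, 12.31 and 12.22 in the deletion strain, and the strains overlapped. The difference was -0.10 (SE 0.09, 95% interval -0.31 to 0.12, adjusted p = 0.388). FCY1 (YPR062W) encodes cytosine deaminase, which makes uracil from the cytosine that Fcy2 brings in. It read 13.11, 13.13 and 12.71 in wild type and 13.26, 13.12 and 13.37 in the deletion strain. Its difference was 0.27 (SE 0.13, 95% interval -0.05 to 0.58, adjusted p = 0.119), and its pooled SD of 0.19, with wild-type array 3 the lowest value, was the highest of the 10 members. In the high-spike arrays, which hold that array as their lone wild-type sample, the difference was 0.54 (adjusted p = 0.0405).

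AMD1 minus AAH1 was -1.09, -0.86 and -1.05 in wild type and -0.51, -0.47 and -0.46 in the deletion strain, a change of 0.52 without overlap (exact permutation p = 0.1, 0.129 adjusted). AMD1 minus FCY1 changed by 0.16 and AAH1 minus FCY1 by -0.36, both with overlap (exact permutation p = 0.4 and 0.3, or 0.4 and 0.338 adjusted over the 9 pairs).

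ADO1 (YJR105W) encodes adenosine kinase, which makes AMP from adenosine. It read 13.78, 13.87 and 13.86 in wild type and 13.91, 14.00 and 13.96 in the deletion strain, a gap of 0.035 log2. The difference was 0.12 (SE 0.05, 95% interval -0.0042 to 0.24, adjusted p = 0.0852), which lies within its SE of the median difference of all tested genes (0.11). It was -0.04 after array centring, where the median of all tested genes was also -0.04. Under quantile normalization it was 0.13 (95% interval 0.013 to 0.26), above the median there of -0.07. Cyclic loess gave 0.12 (95% interval 0.0032 to 0.23), above the median there of -0.00035. Neither passed the threshold (limma adjusted p = 0.0561 and 0.0713), while a variance trend (adjusted p = 0.0454) and array weights (0.14, adjusted p = 0.0354) did.

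**Figure D3:**
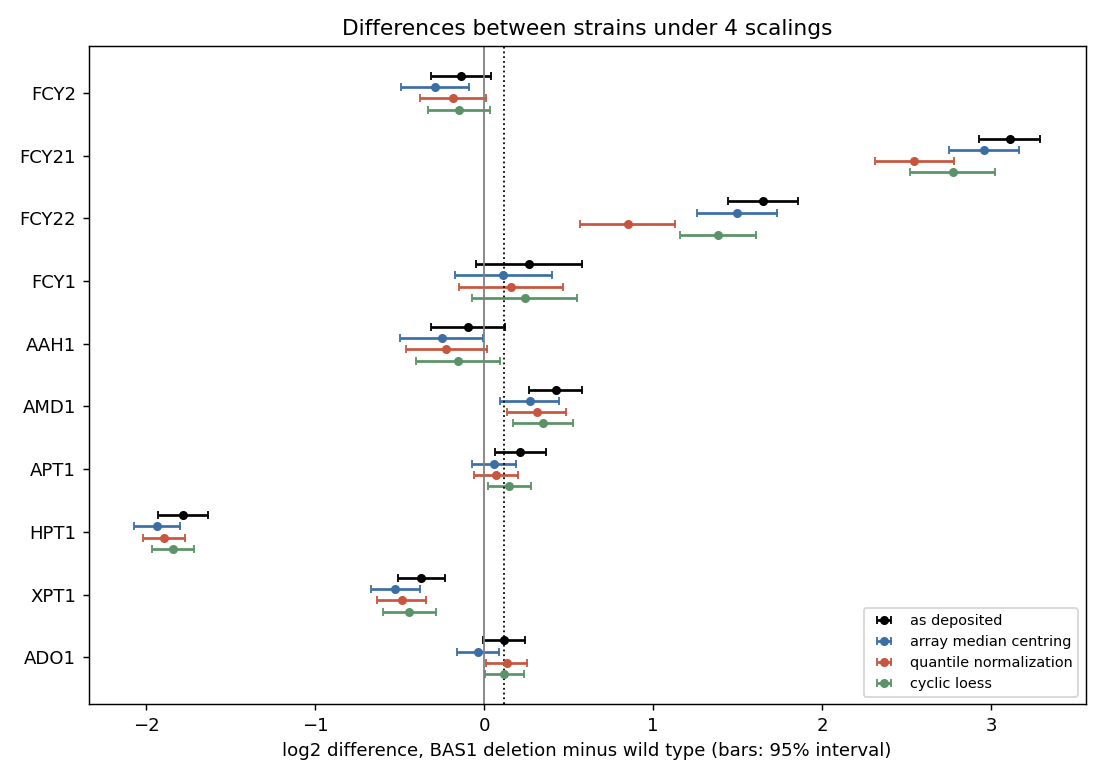
Log2 difference, BAS1 deletion minus wild type (horizontal axis), of the 10 genes with 95% intervals under the deposited scale (black), array median centring (blue), quantile normalization (red) and cyclic loess (green); the dotted line is the median of all tested genes on the deposited scale. HPT1 lies between -1.93 and -1.78 and FCY21 between 2.54 and 3.11, and FCY22 drops to 0.85 under quantile normalization. On the deposited scale the intervals of ADO1 (0.12) and APT1 (0.21) hold the median of all tested genes (0.11). Under quantile normalization and cyclic loess they lie above the medians of those scalings (-0.07 and -0.00035).

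Other genes of purine recovery were taken from a list of 8. Of these 1 rose, 2 fell and 5 were not called, with a median difference of -0.01. APT2, a relative of APT1 known to lack its activity, rose 1.37-fold (log2 difference 0.45, SE 0.08, adjusted p = 0.0043). PNP1, the purine nucleoside phosphorylase gene, read 11.30, 11.34 and 11.24 in wild type and 10.88, 10.82 and 10.83 in the deletion strain and fell 1.37-fold (adjusted p = 4.21e-04). TPN1, a member of the Fcy2 permease family whose product carries vitamin B6, fell by 0.58 on the log2 scale (SE 0.05, adjusted p = 1.23e-04), so relatives of FCY2 were found both raised and lowered. These 3 calls held under all 19 alternatives.

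The other 5 had differences between -0.11 and 0.26. They were MEU1 (-0.11) and ISN1 (-0.09), for methylthioadenosine phosphorylase and an IMP nucleotidase, GUD1 (0.26), for guanine deaminase, FUN26 (0.10), a nucleoside transporter gene, and SAH1 (0.06), for the hydrolase that releases adenosine. MEU1 and ISN1 were called lower under array centring, quantile normalization and cyclic loess, which gave 4 falls in the list, while GUD1, FUN26 and SAH1 changed sign under some of these scalings. GUD1, with an adjusted p of 0.05002 on the deposited scale, was called higher under 2 of the 19 alternatives.

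HPT1 was set beside listed genes of purine synthesis that lead to IMP, a list without ADE13, which is given below with the AMP branch. Of 8 listed genes, ADE5,7 was not among the tested genes. The 7 measured genes fell, with differences from -3.51 for ADE17 to -0.28 for ADE16 and a median of -1.54. ADE8 (-1.54) and ADE6 (-1.15) lie between these. The HPT1 difference of -1.78 lies next to those of ADE4 (-1.76), for the first enzyme of the pathway, and ADE1 (-1.75), and only that of ADE17 is further from 0. XPT1 (-0.37) lies between ADE2 (-1.12) and ADE16. No test of these orders was made.

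In the list of the AMP and GMP branches and nucleotide kinases, 3 of 9 genes rose, 3 fell and 3 were not called, with a median of 0.04. ADE13 (-1.33) and ADE12 (-0.79), which serve the step from IMP to AMP, fell, and AMD1, for the reverse reaction, rose as given above. GUA1, the GMP synthase gene, fell by 0.24. IMD2, an IMP dehydrogenase gene on a probe set whose name marks possible binding to related transcripts, rose by 1.53, while its relatives IMD3 (0.04) and IMD4 (-0.12) were not called and IMD4 passed as lower after array centring (-0.27, adjusted p = 0.0439). YNK1, the nucleoside diphosphate kinase gene, read 12.31, 12.56 and 12.22 in wild type and 13.62, 13.52 and 13.55 in the deletion strain and rose 2.29-fold (adjusted p = 9.5e-05). ADK1, for adenylate kinase, rose by 0.21, but by 0.06 after array centring (adjusted p = 0.316), and GUK1, for guanylate kinase, differed by 0.04.

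Of 6 pyrimidine uptake and salvage genes 3 rose, 1 fell and 2 were not called. FUI1, the uridine permease gene, rose 2.01-fold (log2 difference 1.01, SE 0.13) and FUR4, the uracil permease gene, 1.77-fold (0.83, SE 0.07), with adjusted p of 8.01e-04 and 1.38e-04. URH1, for a ribonucleoside hydrolase, rose by 0.42, and URK1, for uridine kinase, fell by 0.29. FUR1, whose product converts the uracil made by Fcy1, differed by 0.04 (adjusted p = 0.527), and CDD1, for cytidine deaminase, by -0.24 (adjusted p = 0.2), which passed as lower after array centring (-0.39, adjusted p = 0.0424) and quantile normalization (-0.45, adjusted p = 0.026).

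**Figure D4:**
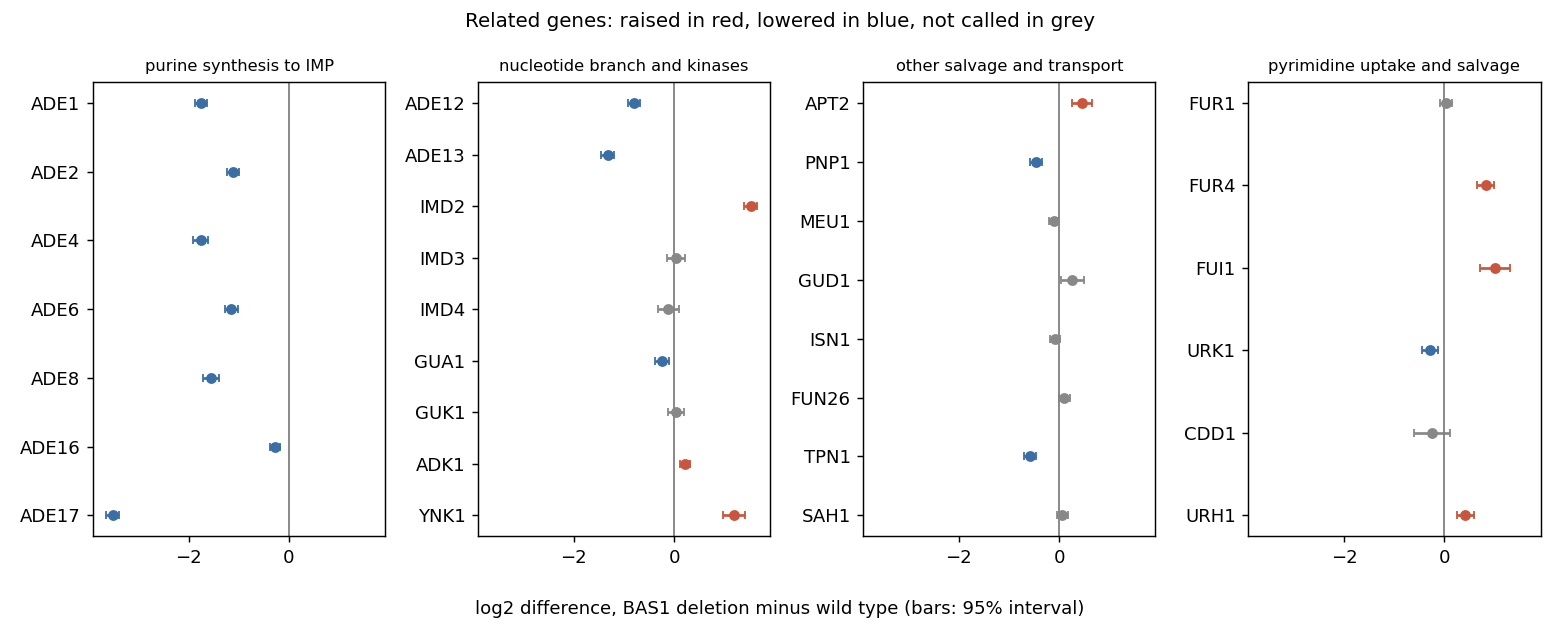
Log2 difference, BAS1 deletion minus wild type (horizontal axis, points with 95% intervals), of related genes in 4 lists, with raised genes in red, lowered genes in blue and genes not called in grey. All 7 measured purine synthesis genes lie below 0, the other lists hold genes on both sides, and IMD2 (1.53), YNK1 (1.20) and FUI1 (1.01) are the highest points.

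The nearest tested genes on the chromosome were read as well. FCY21 and FCY22 neighbour each other, and the genes on their outer sides fell, PCL6 by 0.22 (adjusted p = 0.0076) and CEM1 by 1.39 (adjusted p = 1.83e-05). CEM1 encodes an enzyme of mitochondrial fatty acid synthesis. FCY2 lies between HIS1, a histidine synthesis gene that fell by 0.69, and RPL34A, which differed by -0.28 (adjusted p = 0.23). The neighbours of HPT1 are UTP5, with a difference of 0.006 (adjusted p = 0.945), and URH1, which rose by 0.42, so neither fell with HPT1. Of the 18 neighbouring genes that are no members, 5 rose, 6 fell and 7 were not called. Among all tested genes 59.5% were called, 39.6% as raised and 19.8% as lowered, so the share of neighbours called is near the background. Beside APT1, NSE5 rose by 0.88 and UNG1 fell by 0.58, and beside AMD1, SRC1 fell by 0.36, while CGI121 differed by -0.07. NMD5, beside XPT1, SOD1, beside ADO1, and YPR063C, beside FCY1, were not called either, with differences of -0.03, 0.23 and -0.07. Scaling moved several of these calls. SGM1, beside XPT1, rose by 0.41 but lost its call under quantile normalization (adjusted p = 0.331) and cyclic loess (adjusted p = 0.0938), and THO2, beside AAH1, rose by 0.26 but lost it under array centring (adjusted p = 0.153) and quantile normalization (adjusted p = 0.056). ECM27, beside ADO1, differed by 0.11 and passed as lower under quantile normalization (-0.32, adjusted p = 0.0035) and cyclic loess (-0.19, adjusted p = 0.0263). NMD5 passed as lower under array centring (adjusted p = 0.0426) and quantile normalization (adjusted p = 0.0361). Among those beside genes that were not called, JID1, next to FCY1, rose by 1.69, and MEP2, the ammonium permease gene next to AAH1, fell by 0.78.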

How the data were processed

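The authors deposited linear intensities for 10928 probe sets and 6 arrays. R 2.8.0, affy and RMA are named in the submitters' processing notes, and other settings are not given in the sources used here. The deposited arrays do not share a distribution, with a log2 median over all probe sets of 7.81 to 7.89 in wild type and 8.47 to 8.65 in the deletion strain, so whether a step equalising the arrays was applied is not known, and values are given on the deposited scale with 3 rescalings as alternatives. RMA compresses low values, so changes near background can be understated. Log2 was taken here. Probe sets were matched to genes through the platform annotation and the S. cerevisiae RefSeq table (assembly R64), which gave 5498 probe sets and 5449 genes, each read by its brightest probe set. The test between strains used limma 3.58.1 (lmFit and eBayes, with strain as the sole term, in R 4.3.3) and Benjamini-Hochberg adjustment over all genes, at a threshold of 0.05. The script was tested on simulated data. The 19 alternatives cover scaling, filters, probe sets, variance models, blocks, spike level and omission of each array. The members, lists and tests were chosen with earlier results of these data known. All members, BAS1, the genes of 4 related lists and the nearest tested genes beside each member are named. No 2 arrays held identical values, and the number of arrays limits precision. Gene order was taken from the RefSeq table, no coordinates are printed, and sequences are not used here.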

Additional observations from a re-analysis of the deposited data

How the results depend on the processing

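FCY21, FCY22, HPT1 and AMD1 kept their direction and call under all 19 alternatives, with log2 differences of 2.54 to 3.17, 0.85 to 1.76, -1.93 to -1.74 and 0.27 to 0.54. Several alternatives, such as the mean of a gene's probe sets or the 0.01 threshold, leave the difference of these genes unchanged. Leaving out an array cannot turn their direction either, since their strains do not overlap. XPT1 lost its call once, APT1 9 times, and FCY2, FCY1 and ADO1 gained one under 2, 1 and 2 alternatives. AAH1 was never called, with adjusted p from 0.0728 to 0.754. Between 4 and 7 members were called, and the low-spike arrays alone left 1 lowered member. The change in each of the 9 gene pairs kept its direction under the 8 alternatives run for pairs (quantile normalization, cyclic loess and each array left out). In pairs without overlap, leaving out an array cannot turn the direction, so only quantile normalization and cyclic loess could. Over all genes, quantile normalization called 1356 raised and 1935 lowered, and array centring 1803 lowered. The test over all 10928 probe sets called 1825 of them lowered, a count that includes controls and probe sets with no tested gene. The low-spike arrays alone called 1593 genes (1102 raised, 491 lowered) and the high-spike arrays 614 lowered, each from 2 arrays against 1 that is assumed to vary like the others. The threshold of 0.01 left 679 lowered, by construction. Elsewhere the cause was not tested. The share of calls that were raised went from 66.6% to 45.1% with array centring, 41.2% with quantile normalization and 50.6% with cyclic loess. Deviations from the strain means in arrays with the same replicate number had correlations of 0.44, -0.51 and -0.44 for numbers 1, 2 and 3. Arrays with unlike numbers gave -0.53 to 0.75, the highest for wild-type array 3 with deletion array 2. The numbers thus did not mark pairs throughout, though some arrays of the 2 strains deviated together. With the replicate block 3140 genes and the same number of members, 6, were called. Levels near background, as for FCY22 in wild type, limit what a fold can show.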
